A study of Bos taurus with 11 samples.

Results

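The miR-199 and miR-214 group was examined in mammary biopsies of dairy cows. It comprised 6 mature miRNAs chosen by name, *bta-miR-199a-5p*, *bta-miR-199a-3p*, *bta-miR-199b*, *bta-miR-199c*, *bta-miR-214* and *bta-miR-3604*, and all 6 were found among the 796 miRNAs of the table. The samples were single mammary gland biopsies of 5 Holstein and 6 Montbeliarde cows (Montbéliarde hereafter), with 1 small RNA library per cow. The groups were defined by breed. All cows were in mid-lactation and received the same diet, and a further Holstein cow was excluded by the authors because of mastitis. Between 6087865 and 16808976 reads were counted on miRNAs per library. The library tags CNLX1 to CNLX9 are all Holstein and CNLX13 to CNLX23 all Montbéliarde, so that any effect of the order of these tags cannot be told apart from breed. The authors also report that a smaller share of the raw reads was kept after cleaning for Montbéliarde. Any effect of this cannot be told apart from breed either.

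MiRNAs of this group are known from mesenchymal cells such as fibroblasts, pericytes and smooth muscle cells, and are scarce in epithelial cells. In mammals, *miR-214* and 1 of the *miR-199a* hairpins are made from a common transcript that lies inside the dynamin gene *DNM3*, while the other hairpins of the family lie inside the dynamin genes *DNM2* and *DNM1*. Each hairpin can release a miRNA from its 5′ arm and another from its 3′ arm, and the arms have different targets. *MiR-199a-3p* is known to repress *MET* and *MTOR*, and *miR-199a-5p* represses *HIF1A*.

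The bovine RefSeq annotation (ARS-UCD2.0, an assembly later than that of the counts) has the same arrangement. *MIR214* and *MIR199A-1* overlap *DNM3* and a lncRNA. *MIR3120* overlaps *MIR214* and comes between *MIR214* and *MIR199A-1* in the order of miRNA genes. *MIR199A-2* overlaps *DNM2*, *MIR199B* overlaps *DNM1*, and *MIR199C* overlaps *NUP88*, a nuclear pore gene outside the dynamin family. *MIR3604-1* overlaps *MIR199A-2* and *MIR3604-2* overlaps *MIR199B*. *MiR-3604* is therefore annotated on the same stretches of genome as *miR-199* hairpins, and its counts followed those of *miR-199a-3p* in all 11 libraries. The count of *miR-3604* was between 0.976 and 0.988 times that of *miR-199a-3p*, with no library outside this range. These 2 miRNAs were therefore read as 1 measurement, and the 5 miRNAs without *miR-3604* are called distinct hereafter. It was not tested whether *miR-199c* shares reads with the more abundant *miR-199a-3p*, so these may not be independent.

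The group was a small part of the mammary miRNome. The 5 distinct miRNAs held 0.101% ± 0.0117 (SD, n = 5) of the reads counted for Holstein cows, against 0.144% ± 0.0554 (SD, n = 6) for Montbéliarde cows. In a small RNA library a read stands for a whole mature miRNA, so that read counts need no scaling for length. *MiR-199a-3p* was the most abundant, with a mean normalized read count (raw count divided by 1 size factor per library) of 7991 ± 3788 (SD, n = 11), and it ranked between 49 and 67 among the miRNAs of a library. *MiR-199b*, at 2073 ± 517, and *miR-199a-5p*, at 2038 ± 1157, came next and did not differ beyond their spread over all libraries, although *miR-199b* was the higher of the pair in all 5 Holstein libraries. *MiR-214* followed at 191 ± 163, and *miR-199c* was lowest at 63.3 ± 29.8. *MiR-199a-3p* exceeded *miR-199a-5p* and *miR-199b*, and *miR-214* exceeded *miR-199c*, in each of the 11 libraries. Counting error was small for the abundant miRNAs and larger for the rare ones. In the Montbéliarde library CNLX15, *miR-199a-3p* held 0.161% of the reads (Wilson 95% confidence interval 0.158 to 0.163%), whereas *miR-199c* in the Holstein library CNLX9, with 28 reads, held 0.000377% (0.000261 to 0.000545%). These intervals cover counting error only.

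The levels were compared between the breeds with edgeR's quasi-likelihood test on raw counts of all 550 tested miRNAs, and a positive log2 fold change (log2FC) means a higher level in Montbéliarde. None of the 6 miRNAs passed an adjusted p of 0.05 (Benjamini-Hochberg over the 550), a limit passed by 0.364% of all tested miRNAs. The unadjusted p was at most 0.05 for *miR-199c*, *miR-199a-3p* and *miR-3604*, 3 of 6 or 2 of the 5 distinct miRNAs, each higher in Montbéliarde, where 14.2% of all tested miRNAs reached this limit and 7.64% did so with a higher level in Montbéliarde. The fitted log2FC was above 0 for all 6, with a median of 0.68, whereas the median of the 550 tested miRNAs was 0.03. The direction of *miR-199b* was not stable, as given below. The breeds overlapped in each of the 6 miRNAs, and 2.0% of all tested miRNAs had levels without overlap.

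*MiR-199a-3p* had normalized read counts of 5108, 6487, 6584, 6303 and 5563 in the Holstein libraries CNLX1, CNLX3, CNLX5, CNLX7 and CNLX9. In Montbéliarde they ran from 5276 in CNLX23 through a median of 8427 to 18352 in CNLX15. The Holstein libraries thus lay close together, and 5 of 6 Montbéliarde libraries were above all of them, with only CNLX23 among them. EdgeR gave a log2FC of 0.67 with a standard error of 0.26, at an adjusted p of 0.246. *MiR-3604*, which shares these reads, had a log2FC of 0.68 with the same adjusted p. Without CNLX15 the log2FC of *miR-199a-3p* was 0.48, and its unadjusted p stayed below 0.05. It was 0.35 with CNLX15 and CNLX21 both left out, an alternative chosen after seeing the data.

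*MiR-199a-5p*, the 5′ arm product of the *miR-199a* hairpins, had normalized read counts of 1440, 1841, 1976, 1629 and 1227 in the Holstein libraries, in the order given above. In Montbéliarde the lowest was 1235 in CNLX23, the median 1867 and the highest 5346 in CNLX15, so that CNLX15 was 2.15 times as high as the next library, CNLX21. Only 3 Montbéliarde libraries were above all Holstein libraries. The breed difference from edgeR was 0.54 on the log2 scale, with a standard error of 0.32 and an adjusted p of 0.426. It was 0.23 without CNLX15 and 0.07 with CNLX15 and CNLX21 both left out.

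*MiR-199b*, from the hairpin inside *DNM1*, had nearly equal means, 2019 ± 262 (SD, n = 5) for Holstein against 2119 ± 688 (SD, n = 6) for Montbéliarde. The Holstein libraries were at 1815, 2179, 2312, 2106 and 1682, and the Montbéliarde libraries between 1467 in CNLX23 and 3399 in CNLX15, with a median of 1943. A single Montbéliarde library was above all Holstein libraries and 2 were below all of them. With edgeR the log2FC came to 0.06, its standard error to 0.21 and its adjusted p to 0.911. It was -0.031 without CNLX15 and to -0.004 without CNLX9, so that no direction can be given for this miRNA.

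*MiR-199c*, annotated inside *NUP88*, was the rarest of the group. Its log2FC was the largest of the 6 miRNAs over all libraries, but that of *miR-214* was larger without CNLX13, CNLX17 or CNLX19. Its normalized read counts were 33.4, 45.0, 46.5, 54.7 and 36.5 in the Holstein libraries, resting on 28 to 83 reads each. In Montbéliarde they ranged from 47.9 in CNLX23 to 139 in CNLX15, with a median of 70.6, and 5 of 6 libraries were above all Holstein libraries. EdgeR gave 0.86 on the log2 scale (standard error 0.27), an adjusted p of 0.171, and values between 0.73 and 0.99 when single libraries were omitted. The Wald test of DESeq2 gave an adjusted p of 0.0426, and no other fit of the 11 libraries called a member. The authors, who also used DESeq2, list *miR-199c* among their differentially expressed miRNAs, higher in Montbéliarde.

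*MiR-214*, which shares its transcript with a *miR-199a* hairpin, had normalized read counts of 115, 152, 150, 137 and 107 in the Holstein libraries. The Montbéliarde libraries had a median of 139, which lies within the Holstein range, a lowest value of 107 in CNLX19 and a highest of 667 in CNLX15. CNLX15 was 2.63 times as high as the next library, CNLX21, at 253, and the other 4 Montbéliarde libraries did not exceed the highest Holstein library. The log2FC from edgeR was 0.83, with 0.42 as its standard error and an adjusted p of 0.366. It was 0.31 without CNLX15 and 0.03 with CNLX15 and CNLX21 both left out.

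**Figure D1:**
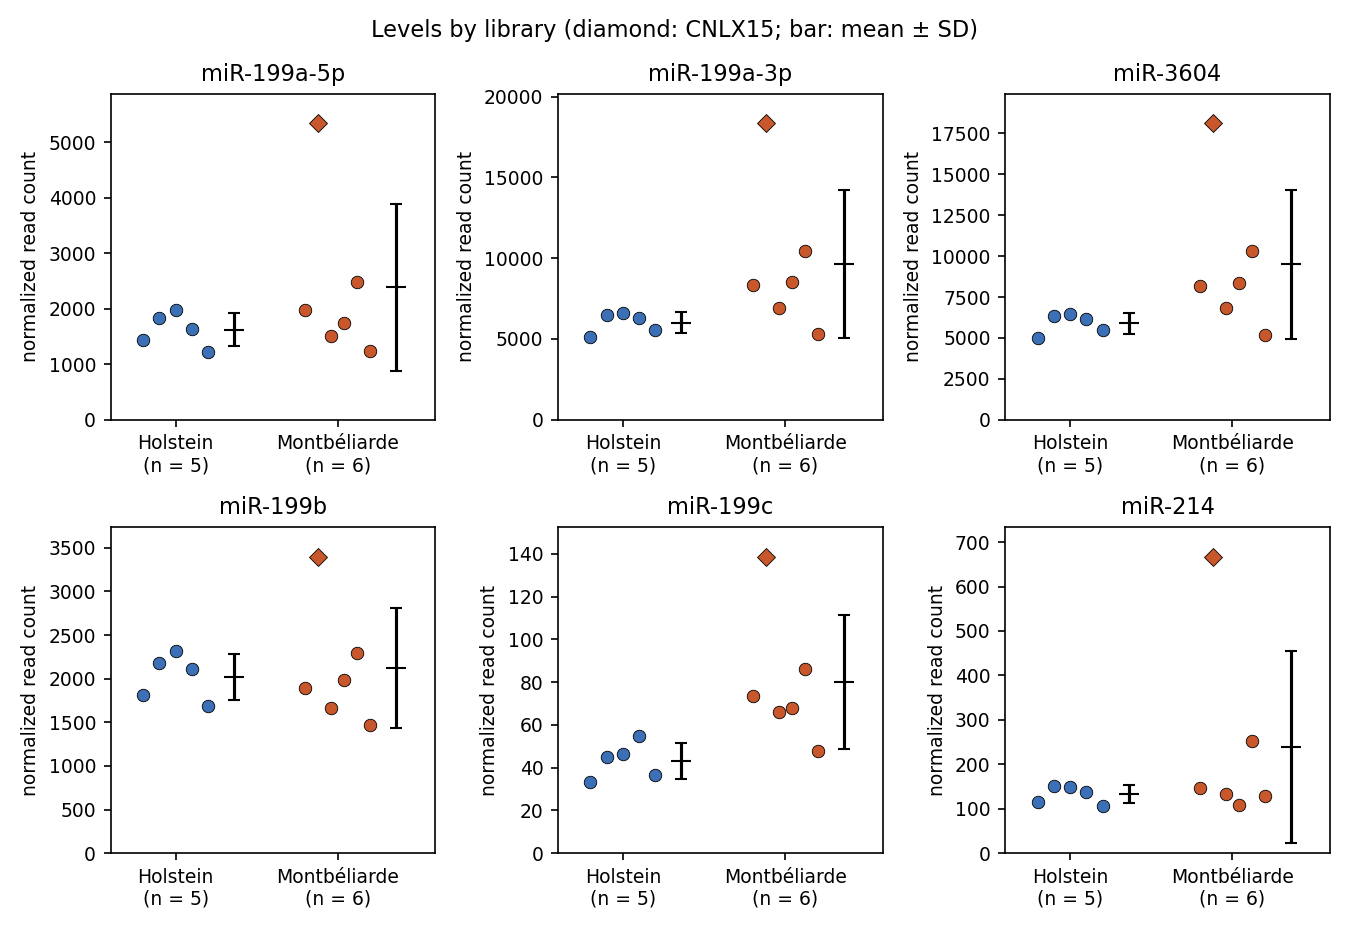
Normalized read counts (y axis, linear, a panel per miRNA with its own scale) of the 6 miRNAs in each library, with Holstein in blue and Montbéliarde in orange; points are cows, the diamond is CNLX15 and the bars are the mean ± SD. CNLX15 is the highest library in every panel, at 18352 for *miR-199a-3p* and 667 for *miR-214*, while the Holstein libraries lie close together.

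The libraries CNLX15 and CNLX21 also had the lowest summed level of the epithelial markers. Of 10 epithelial miRNAs listed (the *miR-200* family with *miR-141* and *miR-429*, *miR-205*, *miR-203* and the *miR-183* cluster), 9 were in the table and none was at 0. Their summed normalized read count ranged from 394212 to 492308 over the Holstein libraries and from 205288 to 499601 over the Montbéliarde libraries, with the lowest sums in CNLX21 (205288) and CNLX15 (213691). The sum is mostly *miR-141*, and not all members were low in CNLX15. *MiR-200a*, *miR-200b*, *miR-200c* and *miR-429* had their lowest normalized read count of the 11 libraries there, whereas *miR-183* (4690) and *miR-96* (340) had their highest. *MiR-205* (20676, Holstein mean 18415) and *miR-182* (27468, Holstein mean 25973) were not low in CNLX15 either. The mean log2 level of the list was 13.5 ± 0.0920 (SD, n = 5) for Holstein, against 13.3 ± 0.266 (SD, n = 6) for Montbéliarde, with p = 0.0866 from a two-sided exact permutation test. When this level entered the edgeR fit as a covariate, the log2FC of *miR-199a-3p* was 0.22 (adjusted p = 0.841) and that of *miR-199c* 0.48 (adjusted p = 0.616). With the same covariate the log2FC was -0.040 for *miR-199a-5p*, -0.081 for *miR-214* and -0.28 for *miR-199b*, and no member reached 0.05 by its unadjusted p. In a bulk biopsy, fewer cells of a type and less RNA per cell cannot be told apart, and the part of tissue composition in these differences was not tested further.

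**Figure D2:**
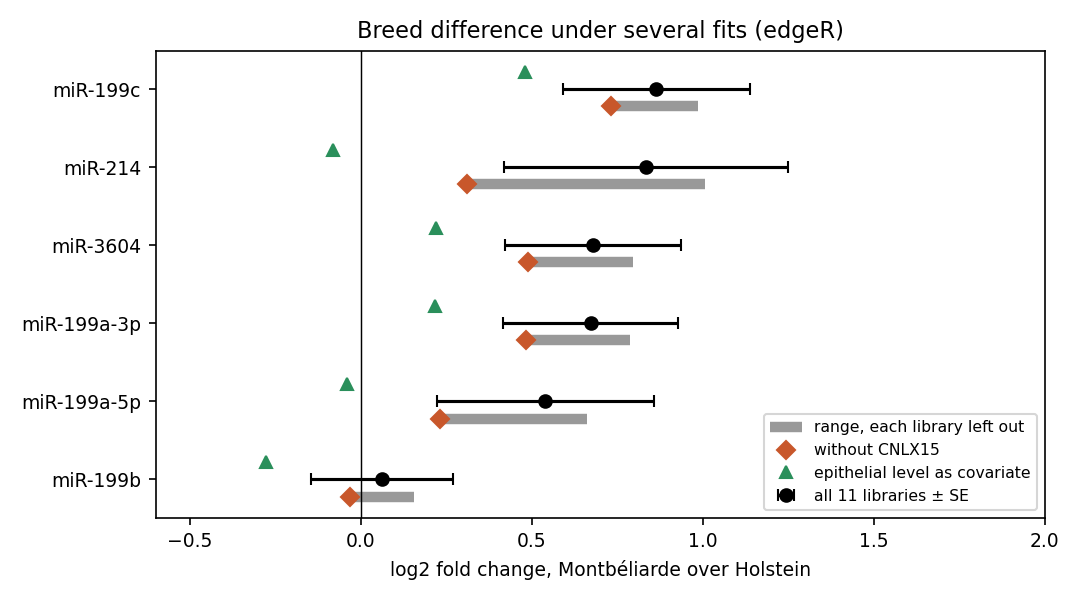
Log2 fold change of the 6 miRNAs, Montbéliarde over Holstein (x axis), from edgeR; black points with bars are the fit of all 11 libraries ± standard error, grey bars the range with each library left out, orange diamonds the fit without CNLX15 and green triangles the fit with the epithelial level as a covariate. *MiR-214* moves from 0.83 to 0.31 without CNLX15 and *miR-199c* from 0.86 to 0.73, while the covariate brings *miR-199a-5p*, *miR-214* and *miR-199b* below 0.

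Ratios of counts within a library do not depend on how libraries are scaled, and they showed how the group was composed. In Holstein, *miR-199b* made up 20.5% ± 0.671 (SD, n = 5) of the reads of the 5 distinct miRNAs, with a range of 19.5 to 21.3%. In Montbéliarde it made up 15.4% ± 1.92 (SD, n = 6), with a range of 12.2 to 17.99%, below every Holstein library. The share of *miR-199a-3p* was higher in Montbéliarde, at 64.7 to 68.5%, than in Holstein, at 59.5 to 64.6%, with a narrow gap. *MiR-199a-5p* held 16.4% ± 1.40 in Holstein and 15.8% ± 1.79 in Montbéliarde, and *miR-214* and *miR-199c* held the small remainder. These shares sum to the whole, most of which is *miR-199a-3p*, so that they are not independent of each other. No such share was computed for miRNAs outside the group. In the ratio to *miR-199a-3p*, 3.65% of 548 tested miRNAs showed no overlap between the breeds.

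Of 4 ratios compared, 2 had an adjusted p of at most 0.05 (exact permutation test over libraries, two-sided, Benjamini-Hochberg over the 4). These 4 were chosen with earlier results of these data known, so that the calls are not independent evidence of a breed difference. The ratio of *miR-199b* to *miR-199a-5p* was 1.26, 1.18, 1.17, 1.29 and 1.37 in the Holstein libraries, whereas the Montbéliarde libraries ran from 0.636 in CNLX15 through a median of 1.03 to 1.19 in CNLX23. It was below every Holstein library in 5 of 6 Montbéliarde libraries. On the log2 scale the difference was -0.37 (exact permutation p = 0.0130, adjusted 0.0433). The ratio of *miR-199c* to *miR-199a-5p* averaged 0.0269 ± 0.00459 (SD, n = 5) among Holstein libraries, against 0.0365 ± 0.00602 (SD, n = 6) among Montbéliarde libraries. It was above every Holstein library in 5 of 6 Montbéliarde libraries, the exception being CNLX15, and the log2 difference was 0.44 (exact permutation p = 0.0216, adjusted 0.0433). Both calls lie near the limit. Leaving out any 1 of the libraries other than CNLX15 and CNLX23 ended both, with adjusted exact p-values between 0.0508 and 0.0952, and without CNLX23 that of *miR-199c* was 0.0794.

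For *miR-199a-5p* and *miR-199a-3p* no breed difference in their ratio passed the test. The reads of *miR-199a-3p* are also those of *miR-3604*, which is annotated on *MIR199B* too, so that this ratio cannot be assigned to the arms of the *miR-199a* hairpins alone. The ratio of *miR-199a-5p* to *miR-199a-3p* averaged 0.269 ± 0.0308 (SD, n = 5) for Holstein, against 0.237 ± 0.0294 (SD, n = 6) for Montbéliarde, a log2 difference of -0.18 (exact permutation p = 0.126, adjusted 0.167). It was -0.24 without CNLX15, with an adjusted exact p of 0.0423. The ratio of *miR-214* to *miR-199a-5p* was steady in Holstein, between 0.0757 and 0.0870, and spread between 0.0614 in CNLX19 and 0.125 in CNLX15 in Montbéliarde. Its log2 difference was 0.14 (exact permutation p = 0.450, adjusted 0.450), with 4 Montbéliarde libraries above and 2 below all Holstein libraries.

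A further ratio, that of *miR-199b* to *miR-199a-3p*, was chosen after the values were seen. It was 0.355, 0.336, 0.351, 0.334 and 0.302 in the Holstein libraries. In Montbéliarde it was lowest in CNLX15 at 0.185 and highest in CNLX23 at 0.278, with a median of 0.230, so that the breeds did not overlap. The log2 difference was -0.55 (exact permutation p = 0.00433, the smallest this design gives, and 0.0216 when adjusted over 5 ratios), and it stayed between -0.61 and -0.49 with each library left out. The adjustment over 5 ratios does not account for choosing this ratio after the values were seen. The reads of *miR-199a-3p*, the denominator, are also those of *miR-3604*, which is annotated on *MIR199B* too. The separation was not particular to *miR-199b*. Of the 548 tested miRNAs other than *miR-199a-3p* and *miR-3604*, 20 (3.65%) had a ratio to *miR-199a-3p* without overlap between the breeds, and all 20 of these (3.65%) were lower in Montbéliarde.

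**Figure D3:**
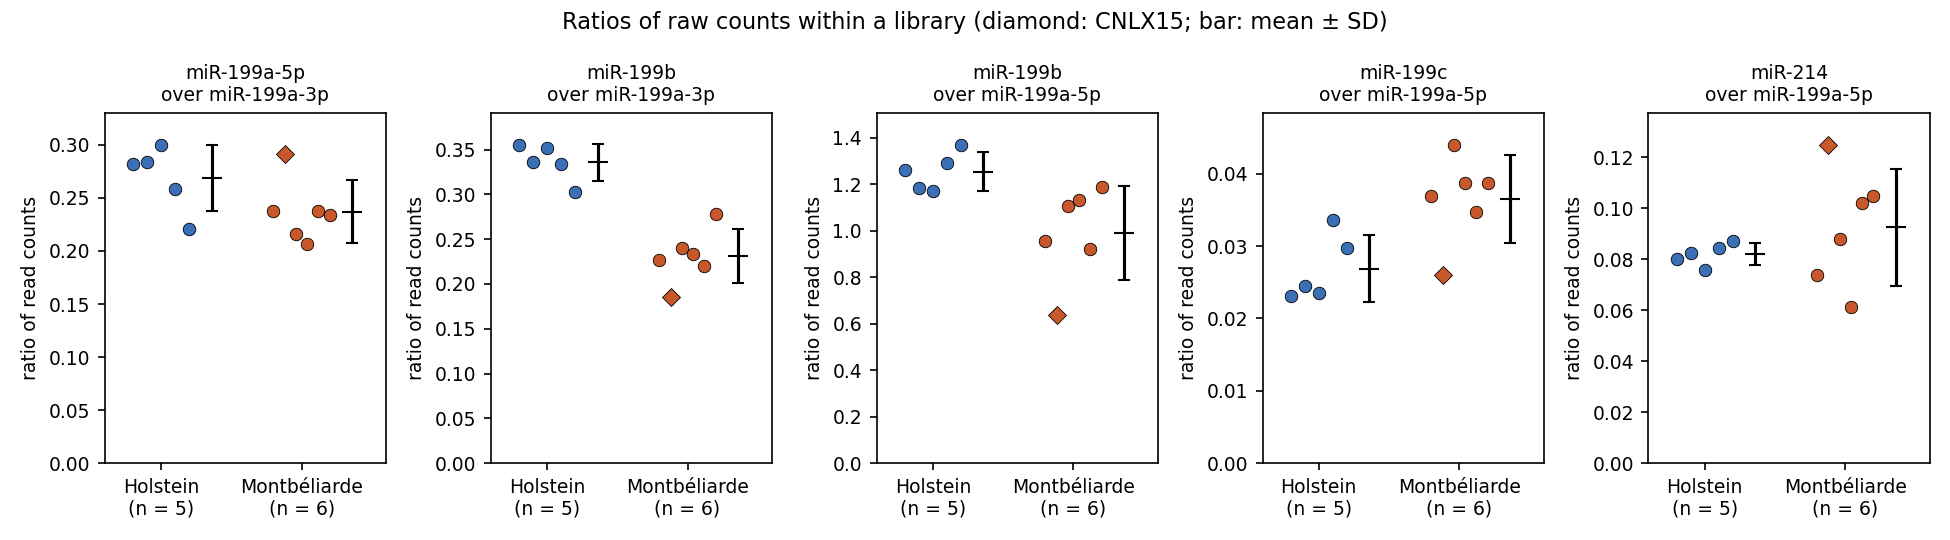
Ratios of raw read counts within a library (y axes, linear, starting at 0) for 5 pairs of miRNAs; points are cows, the diamond is CNLX15 and the bars are the mean ± SD of 5 Holstein and 6 Montbéliarde libraries. The ratio of *miR-199b* to *miR-199a-3p* lies at 0.302 or above in Holstein and at 0.278 or below in Montbéliarde, whereas the other 4 ratios overlap.

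The 5 distinct miRNAs varied together from cow to cow. Over the 11 libraries, on log2(normalized read count + 1), Pearson's r was between 0.67 and 0.95 for the 10 pairs, and each had an adjusted permutation p of at most 0.05. The arms *miR-199a-5p* and *miR-199a-3p* had r = 0.95 (permutation p = 0.000150, adjusted 0.000500) and Spearman's rho = 0.84 (permutation p = 0.00229, adjusted 0.00572). For *miR-199a-3p* and *miR-199c*, whose genes lie apart, r was 0.95 (permutation p = 1e-05, the smallest 100000 resamples can give, adjusted 0.0001) and rho 0.89 (permutation p = 0.000630, adjusted 0.00515). Whether *miR-199c* shares reads with *miR-199a-3p* was not tested. For *miR-199a-5p* and *miR-214*, r was 0.95 (permutation p = 0.000350, adjusted 0.000875) and rho 0.86 (permutation p = 0.00103, adjusted 0.00515). The lowest r was that of *miR-199b* and *miR-199c*, 0.67 (permutation p = 0.0255, adjusted 0.0255), with rho = 0.39 (permutation p = 0.235, adjusted 0.235). All points share the library scaling and the counted total.

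Part of this common variation rested on CNLX15. With the 2 libraries farthest from the median left out, r was 0.83 for the *miR-199a* arms, 0.87 for *miR-199a-3p* with *miR-199c*, 0.75 for *miR-199a-5p* with *miR-214* and 0.27 for *miR-199b* with *miR-199c*. For *miR-199a-3p* with *miR-214* it dropped from 0.89 to 0.21, so that this relation rests on CNLX15 and CNLX21. Without CNLX15 alone, 4 of the 10 pairs kept an adjusted permutation p of at most 0.05. Taken as deviations from the breed means, all 10 pairs had r between 0.86 and 0.99. With CNLX15 also left out, chosen after seeing the data, r was between 0.64 and 0.97, highest for *miR-199a-5p* with *miR-199b*, and 9 of 10 pairs had an adjusted permutation p of at most 0.05. Within the 6 Montbéliarde libraries, which include CNLX15 and CNLX21, r was between 0.895 and 0.997. No value was computed within the 5 Holstein libraries alone.

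*MiR-199a-3p* and *miR-214* were then set beside 4 lists of cell type markers, which gave 8 pairs. *MiR-199a-3p* ran against the epithelial list (r = -0.77, permutation p = 0.00704, adjusted 0.0187, with rho = -0.51, permutation p = 0.116, adjusted 0.233) and *miR-214* did too (r = -0.74, permutation p = 0.0152, adjusted 0.0243, with rho = -0.26, permutation p = 0.432, adjusted 0.494). *MiR-214* rose with the leukocyte list of *miR-142-3p*, *miR-142-5p*, *miR-150*, *miR-155* and *miR-223* (r = 0.90, permutation p = 0.000950, adjusted 0.00644, with rho = 0.75, permutation p = 0.00991, adjusted 0.0426). It also rose with the smooth muscle list of *miR-143* and *miR-145* (r = 0.76, permutation p = 0.00161, adjusted 0.00644, with rho = 0.75, permutation p = 0.0106, adjusted 0.0426). *MiR-199a-3p* had r = 0.78 with the leukocyte list (permutation p = 0.00936, adjusted 0.0187, with rho = 0.47, permutation p = 0.146, adjusted 0.233). Its r of 0.59 with the smooth muscle list missed the limit (permutation p = 0.0560, adjusted 0.0747, with rho = 0.49, permutation p = 0.130, adjusted 0.233). With the endothelial list of both *miR-126* arms, r was -0.39 for *miR-199a-3p* (permutation p = 0.233, adjusted 0.233, with rho = -0.23, permutation p = 0.502, adjusted 0.502) and -0.47 for *miR-214* (permutation p = 0.127, adjusted 0.145, with rho = -0.35, permutation p = 0.299, adjusted 0.398).

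These relations rest largely on CNLX15 and CNLX21 together. Both libraries had the lowest epithelial sums and the highest smooth muscle and leukocyte sums, the latter at 39422 in CNLX15 and 33142 in CNLX21 against at most 26952 in Holstein. The smooth muscle sum is mostly *miR-143* and the leukocyte sum mostly *miR-142-5p*. In CNLX15, *miR-143*, *miR-142-5p*, *miR-155* and *miR-223* had their highest normalized read count of the 11 libraries. *MiR-145* (4470, highest 4785) and *miR-142-3p* (1392, highest 1479) did not, and *miR-150* (1596, highest 1597) was only just below its highest. With CNLX15 and CNLX21 left out, r with the epithelial list was -0.21 for *miR-199a-3p* and 0.29 for *miR-214*, and r with the leukocyte list was 0.01 and 0.47. With the smooth muscle list it was -0.21 and 0.40, and with the endothelial list 0.17 and 0.06. No pair had an adjusted permutation p of at most 0.05 once either library was left out, although r changed little without CNLX21 alone. It was then -0.78 for *miR-199a-3p* and -0.75 for *miR-214* with the epithelial list, and 0.76 and 0.89 with the leukocyte list. Without CNLX15 alone, r was -0.64 for *miR-199a-3p* and -0.62 for *miR-214* with the epithelial list. With the leukocyte list it was then 0.45 and 0.75, and with the smooth muscle list 0.23 and 0.64. As deviations from the breed means, r with the epithelial list was -0.67 for *miR-199a-3p* and -0.70 for *miR-214*, and with the leukocyte list 0.80 and 0.89. Within the 6 Montbéliarde libraries, which include CNLX15 and CNLX21, r with the leukocyte list was 0.88 for *miR-199a-3p* and 0.99 for *miR-214*. It was not computed within Holstein alone.

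**Figure D4:**
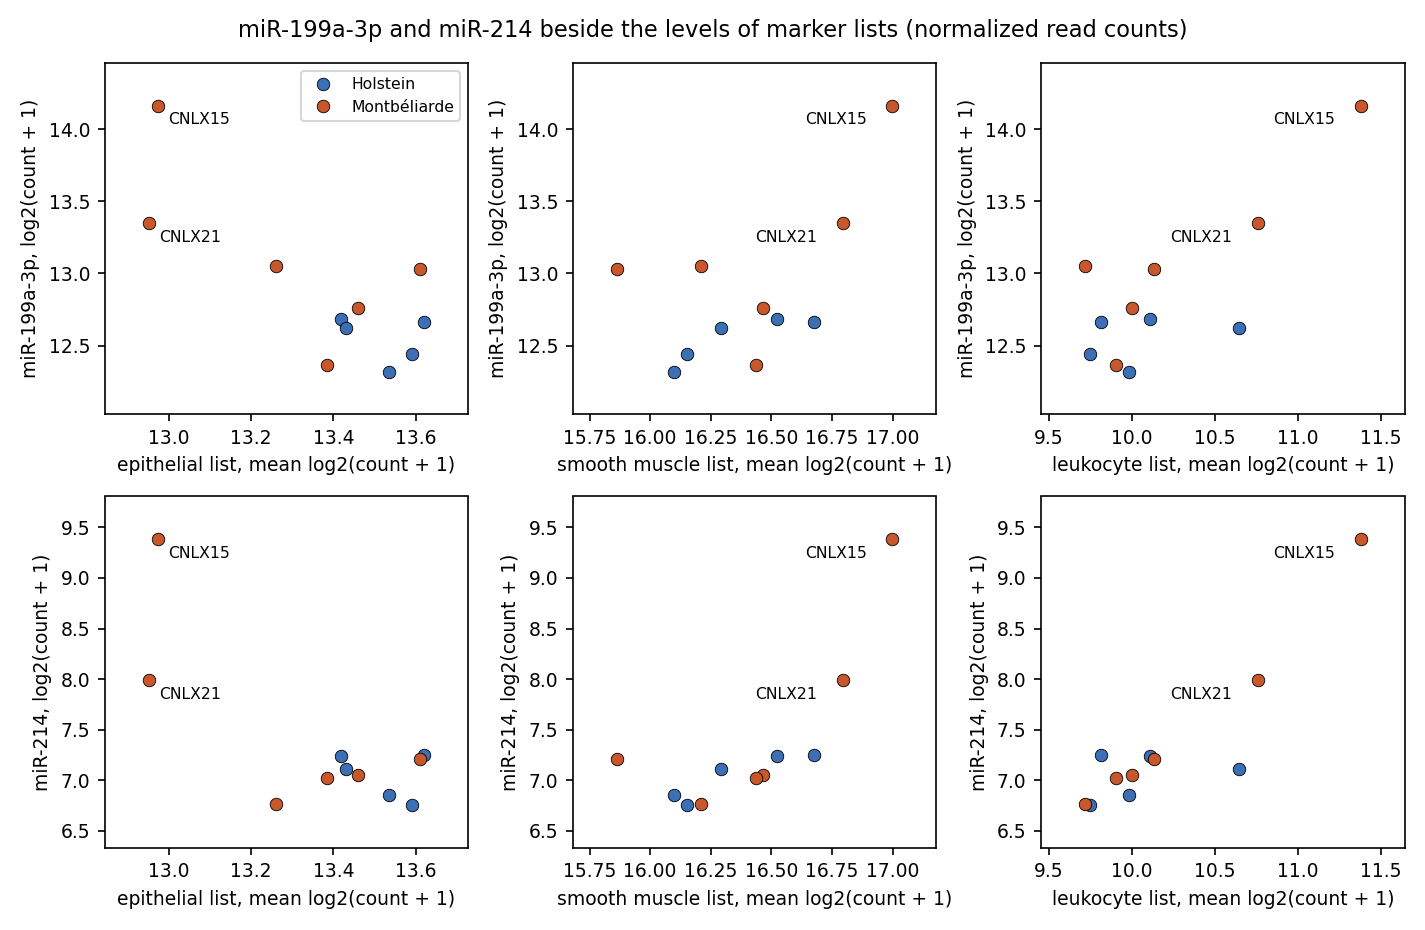
Level of *miR-199a-3p* (top) and *miR-214* (bottom), as log2(normalized read count + 1), against the mean log2 level of the epithelial, smooth muscle and leukocyte lists (x axes); points are the 5 Holstein (blue) and 6 Montbéliarde (orange) cows. CNLX15 and CNLX21 have the lowest level of the epithelial list and the highest of the leukocyte list, where a Holstein library lies close to CNLX21, and without them r with the epithelial list is -0.21 for *miR-199a-3p* and 0.29 for *miR-214*.

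Among 209 miRNAs outside the group with a mean normalized read count of at least 100, those most like *miR-199a-3p* over the 11 libraries were *miR-28* (Pearson's r = 0.98), *miR-125b* (0.95), *miR-130a* (0.95), *miR-504* (0.95) and the predicted miRNA chr21_21957_mature (0.94). The most opposed were *miR-30f* (-0.97), *miR-190a* (-0.95), *miR-2284ab* (-0.93), *miR-374c* (-0.93) and *miR-103* (-0.93). These values describe 11 libraries that share their scaling, and 13 of the 209 had r of at least 0.9. Without CNLX15, *miR-504* (0.94), *miR-28* (0.94) and *miR-125b* (0.90) held the first 3 ranks, and *miR-30f* was still last at -0.90. In CNLX15, *miR-28* had a normalized read count of 3341 against a Holstein mean of 1915, and *miR-30f* had 1101 against 3195.

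Other miRNAs known from mesenchymal cells were compared as a list of 20, chosen with earlier results of these data known, which therefore gives no independent evidence of a direction. None of the 20 passed an adjusted p of 0.05 with edgeR. The unadjusted p was at most 0.05 for 8 of them, each higher in Montbéliarde, whereas 7.64% of all tested miRNAs reached this limit with a higher level there. The log2FC was positive for 14 and negative for 6, with a median of 0.49. Of the 4 most abundant, *miR-143*, a miRNA of smooth muscle, differed by 0.58 on the log2 scale (standard error 0.18), at an adjusted p of 0.171. *MiR-127*, an imprinted miRNA, differed by 0.50 (standard error 0.28, adjusted p = 0.412) and *miR-99a-5p* by 0.48 (standard error 0.27, adjusted p = 0.405). *MiR-22-3p*, which shares its reads with *miR-3600*, differed by -0.20 (standard error 0.17) at an adjusted p of 0.627. *MiR-145*, from the same cluster as *miR-143*, had -0.27 (standard error 0.25, adjusted p = 0.649). Of the 9 epithelial miRNAs tested, 2 reached an unadjusted p of 0.05 or less, *miR-141* and *miR-200c*, both higher in Holstein, and none passed the adjusted limit. Among all tested miRNAs, 14.2% reached the unadjusted limit in either direction.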

How the data were processed

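Small RNA libraries of 11 biopsies were analysed, grouped by the breed given in the sample records. The breeds share no library numbers, so samples were left unpaired. The authors removed adaptor sequence, filtered reads by length and quantified miRNAs with ncPRO-seq and miRDeep2. The authors deposited a table of raw counts, with a row per mature miRNA, and a signal, the normalized read count, which is the raw count divided by the DESeq2 1.18.1 size factor of the library. How reads matching several miRNAs or strands were assigned is not given in the sources used here. Reads shared between miRNAs may thus be counted more than once. The columns of the authors' own breed comparison (pooled means, fold changes and p-values) were not used.

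MiRNAs with at least 10 counts over the libraries were fitted with edgeR 4.0.16 in R 4.3.3 (TMM, robust glmQLFit), with DESeq2 1.42.0 and limma 3.58.1 as alternatives. P-values were adjusted over all 550 tested miRNAs. The standard error was derived from the log2FC and the F statistic. The fit was also run on simulated counts without deviating libraries, and no result given here rests on that run. Ratios were compared with exact permutation tests (smallest p 0.00433), and correlations with 100000 resamples on log2 values with a pseudocount of 1, using scipy 1.17.1. MiRNAs that may share reads were looked for as pairs whose count ratio varied by less than 2% over the libraries, of which there were 13. Pairs far apart in total counts, among them *miR-199c* with *miR-199a-3p*, were not searched. No libraries of a breed agreed within sampling noise. Precision is limited by the spread between cows for abundant miRNAs and also by counting error for *miR-199c*. The miRNAs named were the 6 members, the 5 most and 5 least like *miR-199a-3p*, and up to 4 of the most abundant of each list. *MiR-145*, *miR-141* and *miR-200c* were named after their values were seen. The marker lists were epithelial, smooth muscle, endothelial, leukocyte, skeletal muscle and erythroid, beside the other mesenchymal miRNAs, matched by exact name. Members, lists and ratios were chosen with earlier results of these data known. Gene neighbours come from RefSeq on a later assembly, so no coordinates are given.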

Additional observations from a re-analysis of the deposited data

Results flagged for a closer look

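The Montbéliarde library CNLX15 lay apart from the other 5 of its breed in 3 of 20 sets of values checked with Dixon's criterion, of which chance gives about 1 in 20. Its normalized read count of 5346 for *miR-199a-5p* left a gap of 0.696 of the range of the breed, against a critical value of 0.625. Its normalized read count of 667 for *miR-214* left a gap of 0.739 of the range. Its ratio of *miR-199a-5p* to *miR-199a-3p*, 0.291, left a gap of 0.626, just past the critical value. All 3 concern the same cow and are not independent. No Holstein library was singled out.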

How the results depend on the processing

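No member passed the adjusted limit in edgeR with all libraries, with any 1 library left out (0 to 0 members) or with CNLX15 and CNLX21 both left out, and DESeq2 called 1 member, *miR-199c*. Members with an unadjusted p of at most 0.05 numbered 3, 3 to 5 with a library left out and 0 with the epithelial covariate. Over all miRNAs edgeR called 2 (0 to 6 with a library left out), against 21 with DESeq2, 0 with DESeq2 size factors in edgeR, 0 with the epithelial covariate and 1 with library totals alone. The log2FC turned negative with the epithelial covariate for *miR-199a-5p* (-0.040), *miR-214* (-0.081) and *miR-199b* (-0.28). That of *miR-199b* was -0.031 to 0.15 with a library left out and -0.13 with CNLX15 and CNLX21 both left out. Of the 4 ratios, 2 passed, 0 to 3 with a library left out and 0 as differences of median ratios. Of the pairs of members, 10 passed by r, 6 by Spearman's rho and 4 to 10 with a library left out. Of the pairs with marker lists, 5 passed by r, 2 by rho and 0 to 6 with a library left out. The cause of these changes was not tested. The counts of *miR-199c*, 28 to 111 reads per library, carry the largest counting error of the group.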

Other observations

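Markers of skeletal muscle and red blood cells were read in the same libraries. Of 5 skeletal muscle miRNAs listed, 4 were in the table, with a summed normalized read count of 618 to 1849 in Holstein and 519 to 1620 in Montbéliarde, and CNLX15, at 1045, lay within both ranges. The 3 erythroid miRNAs, *miR-144*, *miR-451* and *miR-486*, summed to 23603 to 39552 in Holstein and 23429 to 57421 in Montbéliarde, where CNLX17 was highest and CNLX15 had 27665. None of these 7 miRNAs reached an unadjusted p of 0.05 between the breeds with edgeR, and none was at 0.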
